A study of Mus musculus with 12 samples.

Results

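Glutamate is the transmitter of the photoreceptors, bipolar cells and retinal ganglion cells (RGCs), and NMDA, the agent injected here, acts on one class of its receptors. The 9 genes described are the plasma membrane carriers Slc1a3, Slc1a2, Slc1a1 and Slc1a7, the vesicular carriers Slc17a7, Slc17a6 and Slc17a8, and the enzymes Glul and Glud1. They were chosen by exact match to the gene names of a table of 55487 mouse genes, and all 9 were found (positions of the genes are on GRCm38) and passed the filter on low values, with 16471 genes in all. Polyadenylated RNA of whole mouse retina was sequenced in 12 libraries, 2 for each of 6 groups. Values are the deposited FPKM, a count of fragments scaled to gene length and library size. The WT retinas came from B6J (C57BL/6J) mice, for which the labels give no vector. The shPax6 retinas carried an AAV2.7m8 vector in which the U6 promoter drives a short hairpin RNA against Pax6 together with GFP, and the JNK3 KO retinas came from Jnk3-/- mice of the Jackson Laboratory. Each genotype received 1 μL of PBS or 1 μL of 40 mM NMDA (40 nmol) into the vitreous. The vector was given to mice 2 months old, and the labels of the libraries give neither age nor time of collection. Libraries pooled more than 3 retinas. The study calls its replicates biological but does not say how mice were divided between the libraries of a group, so p-values measure only the spread between these libraries, which may be in part technical. No shScramble library is among the 12, so infection and knockdown cannot be told apart.

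Glutamate released at a synapse is not broken down there but is carried back into cells. Müller glia take up most of it through GLAST (Slc1a3) and turn it into glutamine with glutamine synthetase (Glul). GLT-1 (Slc1a2) is found on cones and bipolar cells, EAAC1 (Slc1a1) on inner retinal neurons, and EAAT5 (Slc1a7), which also works as a chloride channel, on photoreceptor and bipolar terminals. Before release, glutamate is loaded into synaptic vesicles by VGLUT1 (Slc17a7) in photoreceptors and bipolar cells, by VGLUT2 (Slc17a6) in RGCs and by VGLUT3 (Slc17a8) in a class of amacrine cells. Glutamate dehydrogenase (Glud1), a mitochondrial enzyme, feeds glutamate carbon into the citric acid cycle.

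For Slc17a7, Slc1a7 and Glud1 the estimates for single transcripts moved apart after NMDA in WT retina, and 3 stretches in which annotated transcripts of these genes differ are shown for that reason. They were read from the GENCODE M21 transcripts (GRCm38, plus strand, 5′ to 3′). The first is the 75-base exon at chr7:45169511-45169585 that Slc17a7-202 holds within its coding sequence and Slc17a7-201 lacks, and that also lies inside the unspliced Slc17a7-203. Its 28 capital letters are also the first bases of Slc17a7-204, a retained-intron transcript that begins inside this exon. The second, at chr4:108010330-108010399, is the border where Slc1a7-202 reads from intron (lower case, 40 bases) into exon (capitals, 30 bases), and Slc1a7-201 does not hold the intronic part. GENCODE M21 gives no structure for Slc1a7-203, so the border could not be compared with it. The third, at chr14:34332199-34332239, is the first exon of Glud1-202, and its 41 bases, all in capitals, are absent from Glud1-201.
Slc17a7 extra exon: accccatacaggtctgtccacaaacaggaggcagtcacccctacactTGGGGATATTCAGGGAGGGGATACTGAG
Slc1a7 intron-exon border: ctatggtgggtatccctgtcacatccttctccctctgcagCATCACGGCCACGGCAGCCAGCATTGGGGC
Glud1-202 first exon: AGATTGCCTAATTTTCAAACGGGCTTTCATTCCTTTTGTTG

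Some features of whole libraries bear on these values. Summed over all genes, the 2 WT NMDA libraries held 805627 and 820180 FPKM, and the other 10 held between 541210 and 576922. In WT the median log2 fold change after NMDA went from 0.75 for genes with under 2 kb of exonic sequence to -1.05 for those over 8 kb, against 0.16 and 0.00 in shPax6 and -0.12 and 0.13 in JNK3 KO retinas. The first strand of the libraries was primed with oligo-dT. The median of all genes after NMDA in WT was -0.09 with FPKM and -0.66 with TPM, which scales every library to the same total, and changes on TPM are read against that shift. The 8 rod markers summed to at least 20623 FPKM in every library, and none of the 8 was at 0 in all libraries. The 5 neutrophil markers summed to 206 to 229 FPKM in WT PBS, 1940 to 1980 in WT NMDA, 4.89 to 5.87 in shPax6 PBS, 63.7 to 71.0 in shPax6 NMDA, 149.6 to 161.9 in JNK3 KO PBS and 12.7 to 13.6 in JNK3 KO NMDA libraries. Of the targeted genes, Pax6 had 173 and 177 FPKM in the WT PBS libraries against 94.6 and 92.8 in those of shPax6 PBS. After NMDA it had 55.4 and 53.8 FPKM in WT, 67.5 and 58.7 in shPax6 and 129 and 138 in JNK3 KO, so that the shPax6 libraries were not below WT. Mapk10, which encodes JNK3, had 42.8 and 50.7 FPKM in the WT PBS libraries against 20.9 and 21.3 in those of shPax6 PBS and 9.47 and 8.75 in those of JNK3 KO PBS. After NMDA it had 8.98 and 6.00 FPKM in WT, 16.2 and 8.85 in shPax6 and 6.65 and 13.8 in JNK3 KO, where the WT and JNK3 KO libraries overlapped. The depth of a library is unknown from FPKM.

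In WT retina under PBS the levels per length spanned 2 orders of magnitude. Slc17a7 was highest at 524 and 527 FPKM, followed by Glul at 214 and 215 and Slc1a3 at 70.2 and 69.3. Glud1 (46.7 and 43.8) and Slc1a7 (40.7 and 43.9) overlapped, and below them came Slc1a2, Slc1a1, Slc17a6 and, at 3.76 and 3.85 FPKM, Slc17a8. Apart from Glud1 and Slc1a7, neighbours in this order did not overlap between their 2 libraries.

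After NMDA the 9 genes moved in different ways in the 3 genotypes. In WT, 8 of 9 fell and 1, Slc1a7, rose at an adjusted p under 0.05 (limma, two-sided, Benjamini-Hochberg over all genes), where 59.8% of all genes tested were called in either direction. In shPax6, 5 rose (Slc1a1, Slc1a2, Slc1a3, Slc1a7 and Glud1) and 3 fell (Glul, Slc17a6 and Slc17a7), with 30.2% of all genes called. In JNK3 KO, Slc1a3 rose and Glul fell, with 10.4% of all genes called. Under the rule of an unadjusted p under 0.05 and an absolute log2 fold change above 1, 3 members passed in WT (Slc1a3, Slc17a6 and Slc17a8), with a background of 36.2%, and 1, Slc17a6, passed in shPax6 (background 16.1%) and in JNK3 KO (background 4.67%). The 3 comparisons use separate libraries but 1 common estimate of the spread.

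**Figure D1:**
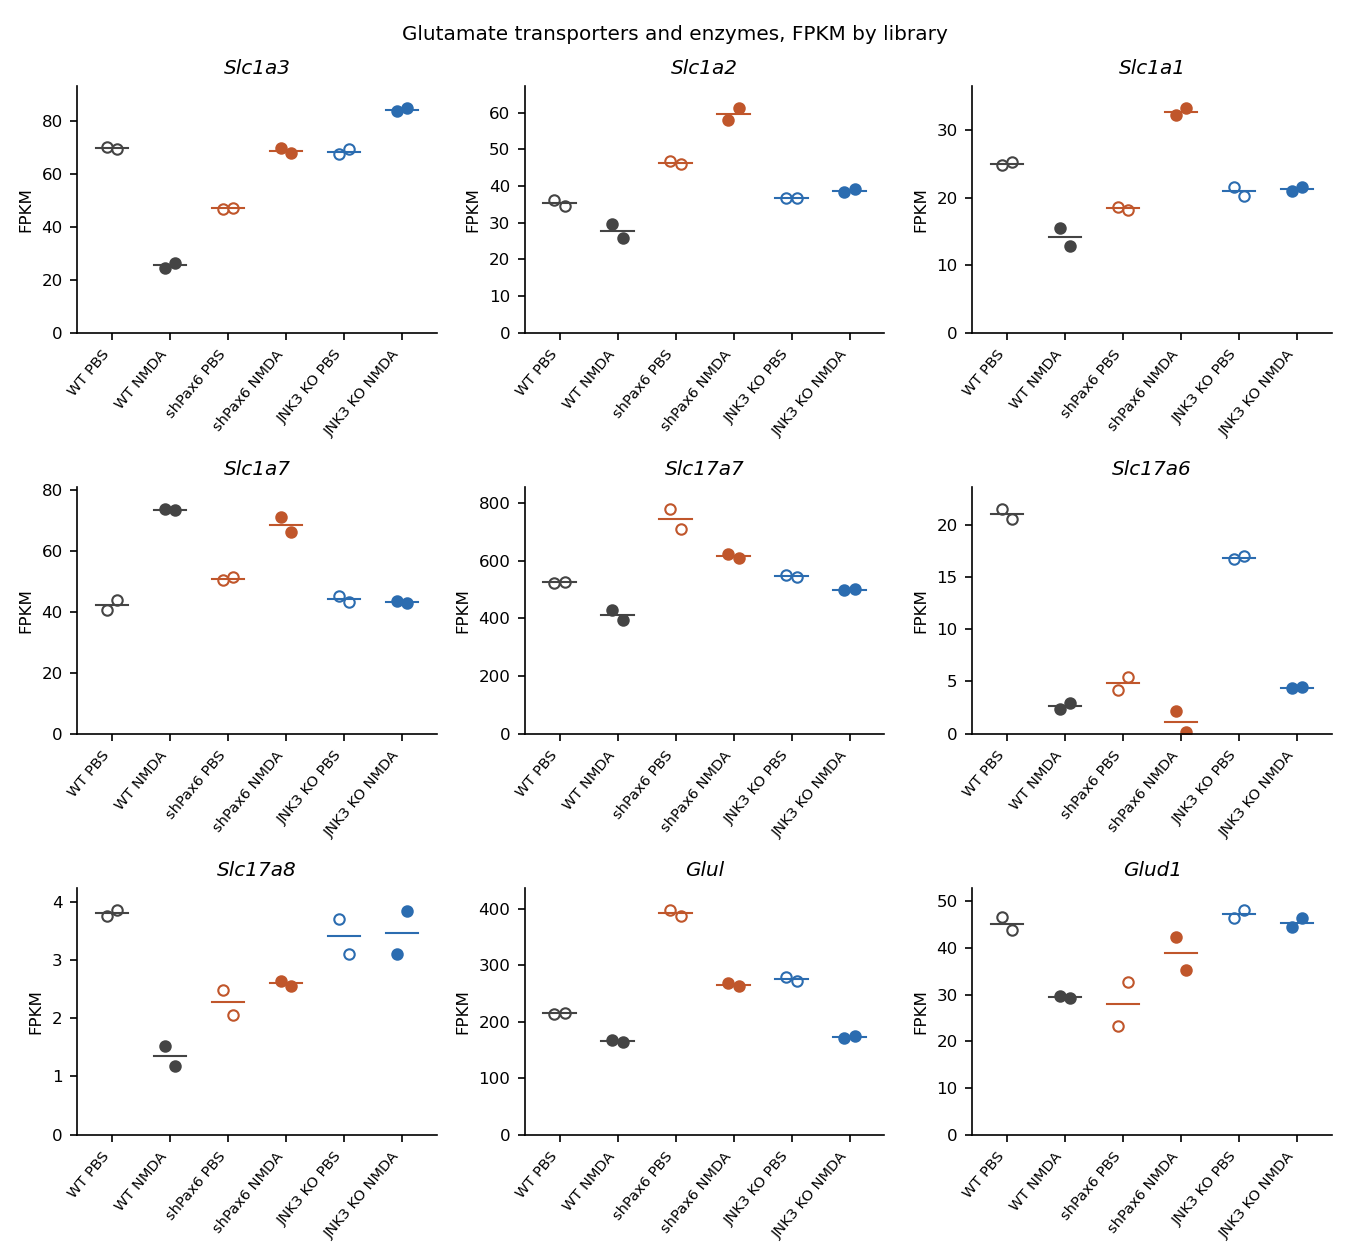
FPKM of each of the 9 genes (vertical axes, starting at 0) in the 12 libraries, by genotype and injection. Open circles are PBS libraries, filled circles NMDA libraries and lines group means. For Slc1a3 the WT NMDA libraries, at 24.6 and 26.2 FPKM, lie below all other libraries, and for Glul the shPax6 PBS libraries, at 397 and 388 FPKM, lie above all others.

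Under PBS the shPax6 retinas already differed from WT in 7 of the 9 genes, 4 higher (Slc1a2, Slc1a7, Slc17a7 and Glul) and 3 lower (Slc1a1, Slc1a3 and Glud1), with 16.5% of all genes called. In JNK3 KO under PBS only Glul was called, 1 of 9 and higher than in WT, with 1.51% of all genes called. The PBS and NMDA comparisons of shPax6 retinas share the shPax6 PBS libraries.

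**Figure D2:**
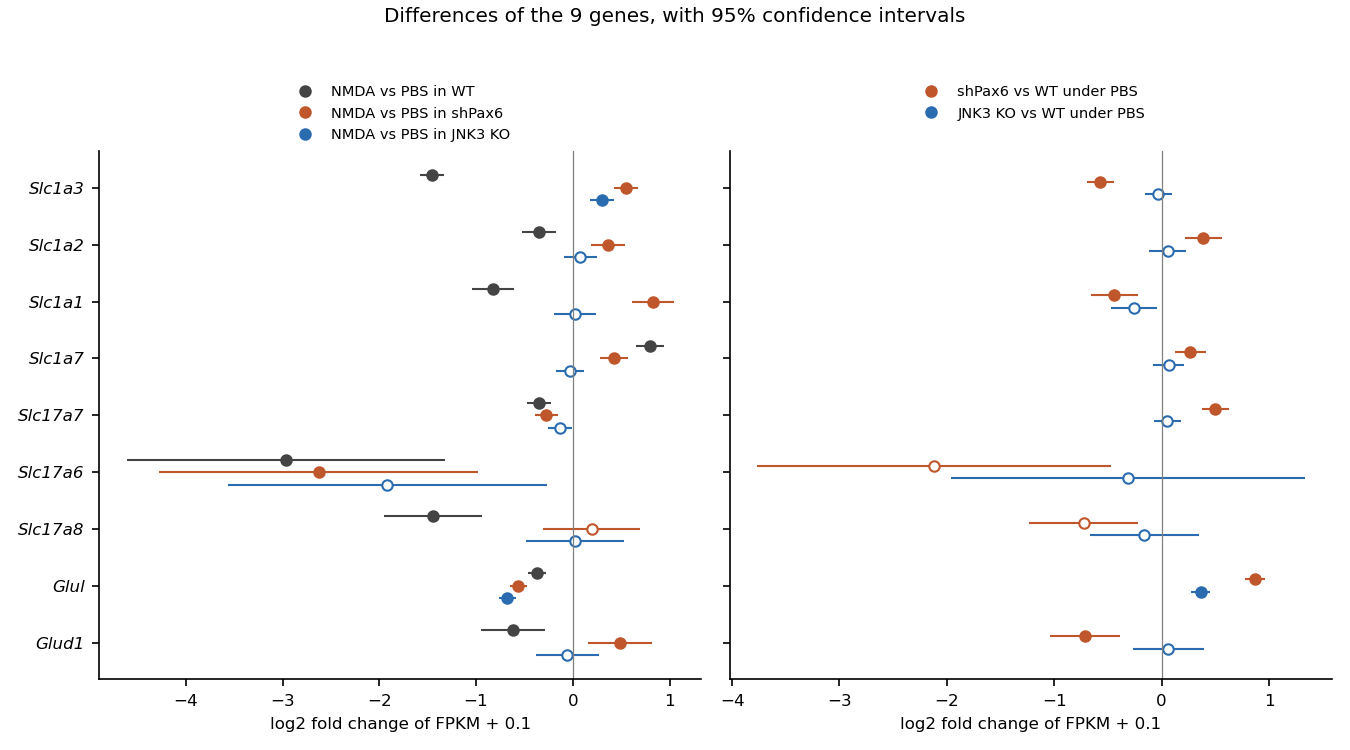
Log2 fold changes of FPKM + 0.1 (horizontal axes) for the 9 genes after NMDA (left) and between genotypes under PBS (right). Points are estimates, lines 95% confidence intervals, and filled points passed an adjusted p of 0.05. The 3 NMDA estimates of Glul are all below 0, while those of Slc1a3 stand at -1.46 in WT, 0.55 in shPax6 and 0.30 in JNK3 KO.

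Slc1a3 (chr15:8634124-8710764, minus strand) encodes GLAST, the main uptake carrier of Müller glia. Its FPKM were 70.2 and 69.3 in WT PBS and 24.6 and 26.2 in WT NMDA, a log2 fold change of -1.46 (SE 0.06, adjusted p = 8.08e-08), that is 2.74-fold lower. They were 46.8 and 47.1 in shPax6 PBS and 69.6 and 68.0 in shPax6 NMDA (0.55, SE 0.06, adjusted p = 0.000109). In JNK3 KO retinas they were 67.4 and 69.3 under PBS and 83.6 and 84.7 after NMDA (0.30, SE 0.06, adjusted p = 0.0101). The PBS and NMDA libraries did not overlap in any genotype, and the direction was down in WT and up in the other 2. Under PBS Slc1a3 was lower in shPax6 than in WT by a log2 fold change of -0.57 (SE 0.06, adjusted p = 0.000207), while JNK3 KO lay within 0.03 of WT (95% interval -0.15 to 0.10). The rise in JNK3 KO lost its call without JNK3 KO PBS library 1 (adjusted p = 0.0678), JNK3 KO NMDA library 1 (0.0539) or JNK3 KO NMDA library 2 (0.0698), and with the trend on length removed (0.0581). The fall in WT stood at -2.03 with TPM and at -0.68 with the trend on length removed, both called. Slc1a3-201, the main transcript, fell by 1.46 on the log2 scale (adjusted p = 1.65e-06), but with the trend on transcript length removed it stood at -0.22 and was not called (adjusted p = 0.109).

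Slc1a2 (chr2:102658659-102790784, plus strand) encodes GLT-1 and is the longest of the 9 genes, with 13133 exonic bases. Its FPKM went from 36.2 and 34.6 in WT PBS to 29.7 and 25.9 in WT NMDA (log2 fold change -0.35, SE 0.08, adjusted p = 0.00314). This direction turned with the trend on length removed, where Slc1a2 was higher after NMDA by 0.79 (adjusted p = 3.21e-05). In shPax6 it was 46.8 and 46.0 under PBS and 58.2 and 61.2 after NMDA, a rise of 0.36 (SE 0.08, adjusted p = 0.00656) that stood at 0.38 with the length trend removed. In JNK3 KO, values of 36.7 and 36.9 under PBS and 38.3 and 39.3 after NMDA did not pass (0.08, adjusted p = 0.614). The main transcript Slc1a2-202 was not called after NMDA in shPax6 (0.17, SE 0.10, adjusted p = 0.355). It was also not called in shPax6 against WT under PBS (-0.01, SE 0.10). Slc1a2-201 (4.13 and 17.5 FPKM in shPax6 NMDA) and Slc1a2-204 (31.5 and 18.9) were called in neither comparison. Between PBS-injected retinas Slc1a2 was higher in shPax6 than in WT (0.39, SE 0.08, adjusted p = 0.00856), a call lost without WT PBS library 2 (adjusted p = 0.0665).

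Slc1a1 (chr19:28835049-28913960, plus strand) encodes EAAC1, the carrier of neurons. It had 24.8 and 25.2 FPKM in WT PBS and 15.5 and 12.8 in WT NMDA (log2 fold change -0.83, SE 0.10, adjusted p = 6.66e-05). With the trend on length removed the estimate was -0.07 (adjusted p = 0.553), so the call in WT depends on that correction. In shPax6 it had 18.6 and 18.2 FPKM under PBS and 32.2 and 33.2 after NMDA, a rise of 0.83 (SE 0.10, adjusted p = 0.000271) that was 0.78 with the trend removed. The 2 shPax6 NMDA libraries were the highest of the 12 for this gene and the 2 WT NMDA libraries the lowest. JNK3 KO retinas showed 21.6 and 20.3 FPKM under PBS and 21.0 and 21.5 after NMDA (0.02, 95% interval -0.20 to 0.24, adjusted p = 0.937). Under PBS Slc1a1 was lower in shPax6 than in WT (-0.44, SE 0.10, adjusted p = 0.0149), a call lost without WT PBS library 1 (adjusted p = 0.0735) or 2 (0.0880).

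Slc1a7 (chr4:107968332-108013532, plus strand), which encodes EAAT5, was the only member whose gene value rose in WT. It had 40.7 and 43.9 FPKM in WT PBS and 73.7 and 73.6 in WT NMDA (log2 fold change 0.80, SE 0.06, adjusted p = 5.87e-06), and 0.23 with TPM (adjusted p = 0.00982). In shPax6 it rose from 50.3 and 51.5 to 71.1 and 66.1 (0.43, SE 0.06, adjusted p = 0.00108), and in JNK3 KO it stood at 45.3 and 43.3 under PBS and 43.5 and 43.1 after NMDA (-0.03, adjusted p = 0.831). All 4 NMDA libraries of WT and shPax6 lay above all 8 others. The higher level in shPax6 than in WT under PBS (0.27, SE 0.06, adjusted p = 0.0216) lost its call without WT PBS library 1 (0.130), shPax6 PBS library 1 (0.0539) or shPax6 PBS library 2 (0.0605).

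The rise of Slc1a7 in WT was that of 1 transcript. Slc1a7-202, a retained-intron transcript of 3 exons at the 3′ end of the gene whose intron-exon border is printed above, was listed at 6.85 and 10.7 FPKM in the PBS libraries and at 55.2 and 58.3 in the NMDA libraries (log2 fold change 2.72, SE 0.49, adjusted p = 0.00337). Slc1a7-203, which GENCODE M21 does not hold, fell from 33.0 and 32.5 to 18.2 and 15.0 FPKM (-0.99, SE 0.13, adjusted p = 0.000559). In WT PBS, Slc1a7-203 held 74.1% to 81.1% of the summed transcript FPKM of the gene, and in WT NMDA 20.3% to 24.6%. In shPax6, Slc1a7-202 was at 2.56 and 5.77 FPKM under PBS and at 27.4 and 10.6 after NMDA (2.11, adjusted p = 0.0367), and this call was lost when any one of the 12 libraries other than shPax6 PBS library 2 or shPax6 NMDA library 2 was left out. Slc1a7-203 did not pass in shPax6 (46.4 and 44.9, then 42.8 and 54.3 FPKM, adjusted p = 0.780).

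Added over the 4 genes, the uptake carriers summed to 172 and 173 FPKM in WT PBS and 143 and 138 in WT NMDA. Slc1a3 made up 40.8% and 40.0% of this sum under PBS and 17.1% and 18.9% after NMDA, and Slc1a7 23.7% and 25.4%, then 51.4% and 53.1%. In shPax6 the sum went from 163 in both PBS libraries to 231 and 229 after NMDA, with the share of Slc1a3 between 28.8% and 30.1% throughout. In JNK3 KO it went from 171 and 170 to 186 and 189, and the share of Slc1a3 from 39.4% and 40.8% to 44.8% and 44.9%. The sums and shares use gene values, which are not those of coding transcripts alone. In the WT NMDA libraries most of the Slc1a7 value was the retained-intron transcript Slc1a7-202, at 55.2 and 58.3 FPKM. The rise in the share of Slc1a7 in WT therefore does not show a rise of RNA that encodes the carrier. These shares were computed after the values of the genes were known and were not tested.

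**Figure D3:**
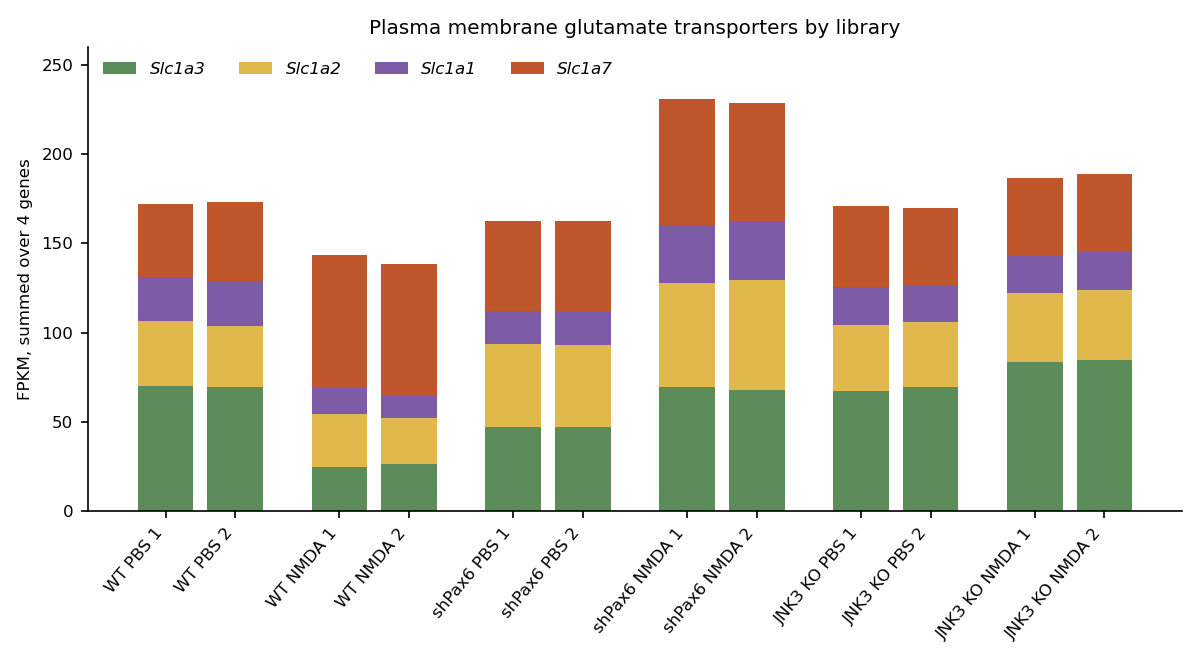
FPKM of Slc1a3, Slc1a2, Slc1a1 and Slc1a7, stacked, in each of the 12 libraries (1 bar per library). In the WT NMDA libraries Slc1a7 makes up 51.4% and 53.1% of the bar and Slc1a3 17.1% and 18.9%. Bars show gene values, and most of the Slc1a7 part in WT NMDA is the retained-intron transcript Slc1a7-202 (55.2 and 58.3 FPKM). The tallest bars are the shPax6 NMDA libraries, at 231 and 229 FPKM.

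Slc17a7 (chr7:45163949-45176142, plus strand) encodes VGLUT1, the vesicular carrier of photoreceptors and bipolar cells. Its FPKM went from 524 and 527 to 430.2 and 394 in WT (log2 fold change -0.35, SE 0.05, adjusted p = 0.000383) and from 778 and 711 to 624 and 608 in shPax6 (-0.27, SE 0.05, adjusted p = 0.00502). In JNK3 KO it was 549 and 543 under PBS and 497 and 501 after NMDA (-0.13, adjusted p = 0.179). PBS libraries lay above NMDA libraries in all 3 genotypes, with the smallest gap in JNK3 KO. In WT the estimate was -0.93 with TPM and 0.02 with the trend on length removed (adjusted p = 0.817), where its direction turned. PBS-injected shPax6 retinas had more Slc17a7 than WT (0.50, SE 0.05, adjusted p = 0.000390). All 8 rod markers were also higher in shPax6 than in WT under PBS. They summed to 24901 to 24993 FPKM in WT PBS and 32917 to 35621 in shPax6 PBS. Of 8 cone markers 7 were higher and 0 lower in that comparison, and of 8 bipolar markers 0 were higher and 3 lower. In JNK3 KO under PBS 6 rod markers and 0 cone markers were higher than in WT, where Slc17a7 was not called (0.05, adjusted p = 0.740). After NMDA 4 rod markers rose and 2 fell in WT, 1 rose and 7 fell in shPax6, and 0 rose and 6 fell in JNK3 KO. Of the cone markers 1 rose and 4 fell in WT, 0 rose and 8 fell in shPax6, and 0 rose and 6 fell in JNK3 KO. The part of rods, cones or bipolar cells in the Slc17a7 difference was not tested.

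The 3 main transcripts of Slc17a7 parted in WT. Slc17a7-202, the coding transcript with the extra exon printed above, fell from 184 and 178 to 20.8 and 15.5 FPKM (log2 fold change -3.32, SE 0.13, adjusted p = 9.90e-07). Slc17a7-201, which lacks that exon, fell less, from 296 and 278 to 175 and 132 (-0.92, SE 0.12, adjusted p = 0.000632). Slc17a7-204, which starts within the extra exon and keeps the intron behind it, rose from 29.7 and 55.6 to 231 and 242 (2.54, SE 0.33, adjusted p = 0.000636). Its share of the summed transcript FPKM of the gene went from 5.7% and 10.6% to 53.6% and 61.5%. With the trend on transcript length removed Slc17a7-201 lost its call (adjusted p = 0.687), while the calls of Slc17a7-202 and Slc17a7-204 kept their sides and directions in all 15 alternatives. In shPax6 only Slc17a7-202 was called, from 276 and 242 to 173 and 174 FPKM (-0.58, adjusted p = 0.0291), and that call was lost when 1 library was left out in 7 of 12 cases. In JNK3 KO none of the 3 was called, and Slc17a7-204 was at 74.2 and 81.9 FPKM under PBS and at 42.4 and 32.3 after NMDA (adjusted p = 0.245).

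**Figure D4:**
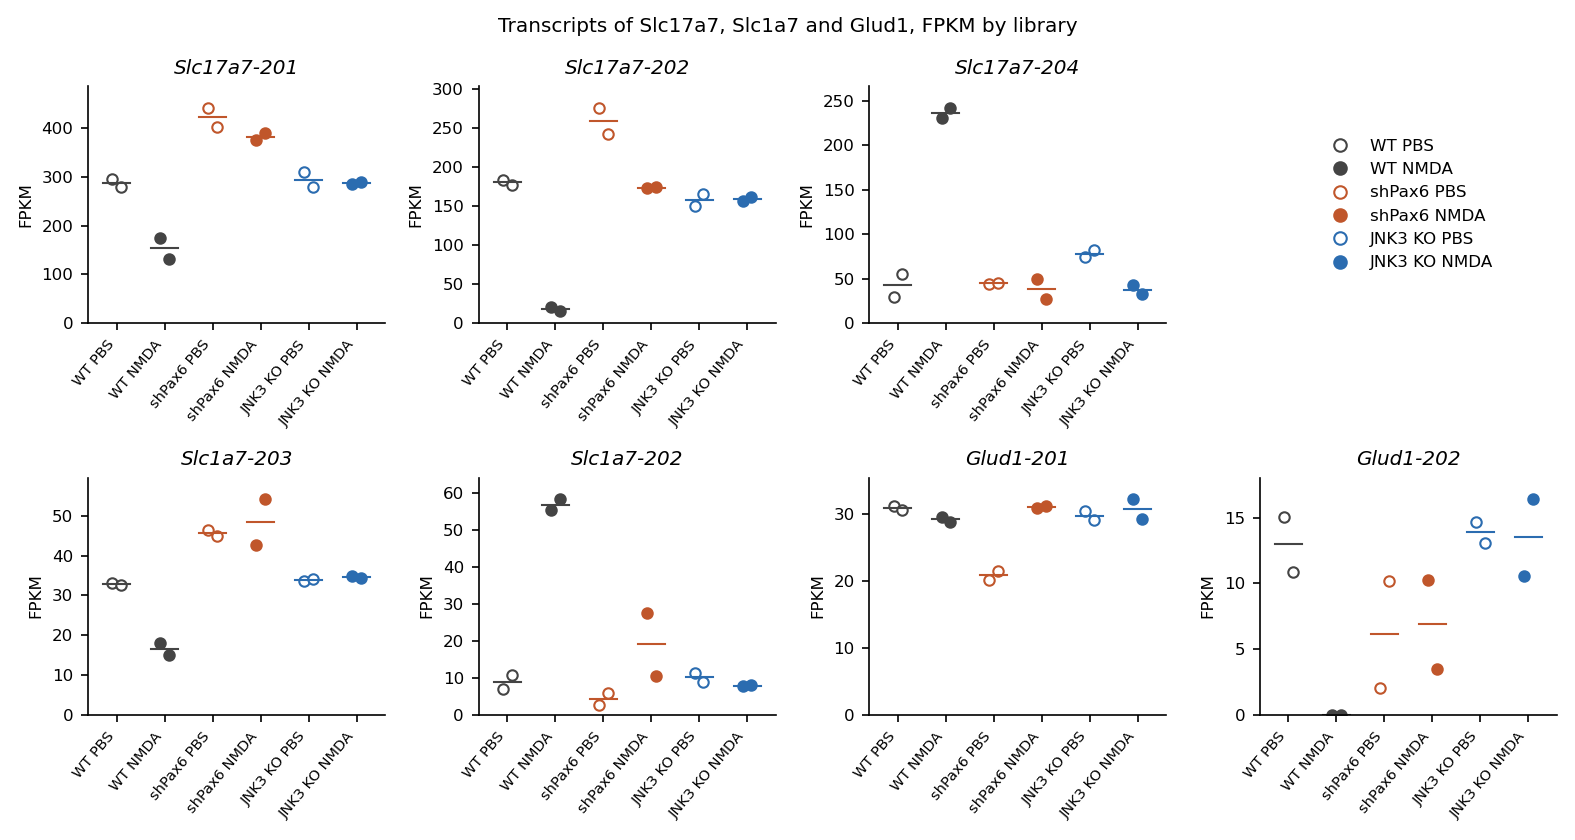
FPKM of single transcripts of Slc17a7, Slc1a7 and Glud1 (vertical axes, starting at 0) in the 12 libraries, with open circles for PBS, filled circles for NMDA and lines for group means. In WT NMDA Slc17a7-204 and Slc1a7-202 are at their highest while Slc17a7-201, Slc17a7-202 and Slc1a7-203 are at their lowest, and Glud1-202 is listed at 0.

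Slc17a6 (chr7:51622006-51671119, plus strand) encodes VGLUT2, the vesicular carrier of RGCs, and showed the largest changes of the 9 genes after NMDA. Its FPKM were 21.5 and 20.6 in WT PBS and 2.34 and 2.91 in WT NMDA (log2 fold change -2.96, SE 0.73, adjusted p = 0.00621). In JNK3 KO they were 16.8 and 17.0 under PBS and 4.33 and 4.48 after NMDA. This difference of -1.92 did not overlap between libraries but missed the threshold in the shared model (adjusted p = 0.141). It passed when either shPax6 NMDA library was left out (adjusted p = 0.00124 and 0.00110) or when the spread was taken from the JNK3 KO libraries alone (0.0156). In shPax6 Slc17a6 was low under PBS, at 4.20 and 5.42 FPKM, and the 2 NMDA libraries, at 2.13 and 0.18, differed from each other more than 10-fold. The fall in shPax6 was -2.62 (SE 0.73, adjusted p = 0.0241) and lay between -1.13 and -4.12 with 1 library left out, -1.13 without shPax6 NMDA library 2 and -4.12 without library 1. Its call was lost without shPax6 PBS library 1 (0.0795), shPax6 PBS library 2 (0.108), JNK3 KO NMDA library 1 (0.0505) or JNK3 KO NMDA library 2 (0.0504). Under PBS the log2 fold change of Slc17a6 in shPax6 against WT was -2.12, with no overlap of libraries and an adjusted p of 0.0830, which fell to 0.000434 and 0.000392 when shPax6 NMDA library 1 or 2 was left out. Of the 2.13 FPKM in shPax6 NMDA library 1, 1.32 were the noncoding Slc17a6-202. The coding Slc17a6-201 had 4.20 and 4.28 FPKM in shPax6 PBS and 0.81 and 0.18 after NMDA (-3.10, SE 0.46, adjusted p = 0.00608). With 1 library left out this fall lay between -2.25 and -3.95. Under PBS Slc17a6-201 was lower in shPax6 than in WT (-2.26, SE 0.46, adjusted p = 0.0472). Most RGC markers changed in the direction of Slc17a6. Their median log2 fold changes after NMDA were -1.83 in WT, -2.48 in shPax6 and -1.83 in JNK3 KO.

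Of the 10 RGC markers, 8 fell after NMDA in WT, 7 in shPax6, 7 in JNK3 KO, and 6 were lower in shPax6 than in WT under PBS. Their sum was 547 to 570 FPKM in WT PBS, 316 to 333 in WT NMDA, 164 to 166 in shPax6 PBS, 49.5 to 53.4 in shPax6 NMDA, 524 to 567 in JNK3 KO PBS and 136 to 137 in JNK3 KO NMDA. None of these markers was at 0 in all libraries. The part of RGC numbers in the level of Slc17a6 was not tested, and in RNA of a whole tissue fewer cells of a type and less RNA per cell cannot be told apart. The 2 genes whose centred log2 values lay closest to those of Slc17a6 over the 12 libraries were Pou4f1 (root mean square difference 0.40) and Nefm (0.62), both on the RGC marker list, and with a pseudocount of 1 they were Rgs4 and Pou4f1.

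Slc17a8 (chr10:89574020-89621253, minus strand) encodes VGLUT3, carried by a small class of amacrine cells, and was the lowest of the 9. It fell in WT from 3.76 and 3.85 to 1.52 and 1.17 FPKM (log2 fold change -1.44, SE 0.22, adjusted p = 0.000394). In shPax6 it was 2.49 and 2.05 under PBS and 2.64 and 2.56 after NMDA (0.19, 95% interval -0.31 to 0.70, adjusted p = 0.555), and in JNK3 KO 3.70 and 3.11, then 3.10 and 3.84 (0.02, adjusted p = 0.983). Its lower level in shPax6 under PBS missed the threshold (-0.73, SE 0.22, adjusted p = 0.0566). The 8 amacrine markers, among them Gad1 and Gad2 for GABA synthesis, fell in 7 of 8 cases in WT, in 8 of 8 in shPax6 and in 3 of 8 in JNK3 KO. In shPax6 their sum was 212 to 223 FPKM under PBS and 90.6 to 93.0 after NMDA, where Slc17a8 did not pass.

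Glul (chr1:153899944-153909723, plus strand) encodes the glutamine synthetase of Müller glia. It was the only member called in the same direction after NMDA in all 3 genotypes, each time lower. Slc1a3 was also called in all 3, but fell in WT and rose in the other 2. Its FPKM were 214 and 215 in WT PBS and 168 and 164 in WT NMDA (log2 fold change -0.37, SE 0.04, adjusted p = 3.62e-05). They were 397 and 388 in shPax6 PBS and 268 and 263 after NMDA (-0.56, SE 0.04, adjusted p = 1.25e-05), and 279 and 273 in JNK3 KO PBS and 171 and 175 after NMDA (-0.68, SE 0.04, adjusted p = 2.64e-05). The 3 falls kept direction and call in all 23 alternatives. After NMDA the WT and JNK3 KO libraries lay between 164 and 175 FPKM, and those of shPax6 above them. Under PBS, Glul was 1.83-fold higher in shPax6 than in WT (0.87, SE 0.04, adjusted p = 4.43e-06) and 1.29-fold higher in JNK3 KO (0.36, SE 0.04, adjusted p = 0.00604), and the second call was lost without JNK3 KO PBS library 1 (0.0531).

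Glul and Slc1a3, the Müller glia pair of uptake and conversion, parted in shPax6 and JNK3 KO. There Slc1a3 rose after NMDA while Glul fell. In PBS-injected shPax6 retina Glul was higher and Slc1a3 lower than in WT. The 11 other Müller glia markers gave no common direction in WT, with 3 higher, 5 lower and 3 not called after NMDA. In shPax6 5 rose, 2 fell and 4 did not pass, and in JNK3 KO 3 rose, 3 fell and 5 did not pass. Aqp4, a water channel of Müller glia, went from 22.9 and 21.6 to 3.05 and 3.46 FPKM in WT, and Vim, an intermediate filament that rises in reactive glia, from 339 and 368 to 1154 and 1169. The summed level of the 11 markers was 1482 to 1553 FPKM in WT PBS and 2142 to 2150 in WT NMDA, 2365 to 2498 and 4139 to 4433 in shPax6, and 1523 to 1535 and 1610.2 to 1621 in JNK3 KO. The part of Müller glia number or state in Slc1a3 and Glul was not tested.

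Glud1 (chr14:34310727-34345265, plus strand), the mitochondrial enzyme, fell in WT from 46.7 and 43.8 to 29.6 and 29.2 FPKM (log2 fold change -0.62, SE 0.15, adjusted p = 0.00489). In shPax6 it was 23.2 and 32.7 under PBS and 42.4 and 35.3 after NMDA (0.49, SE 0.15, adjusted p = 0.0321). This rise lost its call in 17 of 23 alternatives, among them TPM (0.0568) and the omission of any library but shPax6 PBS 2 and shPax6 NMDA 2. In JNK3 KO it was 46.4 and 48.1, then 44.5 and 46.4 (-0.06, 95% interval -0.38 to 0.27, adjusted p = 0.884). Under PBS it was lower in shPax6 than in WT (-0.71, SE 0.15, adjusted p = 0.0105), a call lost without WT PBS library 1 (0.0838) or 2 (0.0585).

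On the FPKM scale 1 transcript of Glud1 fell in WT and the other was not called. Glud1-202, a noncoding transcript of 6 exons that begins with the exon printed above, had 15.1 and 10.9 FPKM under PBS in WT and was listed at 0 in both WT NMDA libraries. Glud1-201, the full coding transcript, was at 31.2 and 30.6 FPKM under PBS and at 29.6 and 28.9 after NMDA (log2 fold change -0.08, SE 0.08, adjusted p = 0.485). That value depends on the scale. With TPM, where the median change of all genes was -0.66, Glud1-201 stood at -0.65 (adjusted p = 0.000460). With the trend on transcript length removed it stood at 0.93 (adjusted p = 0.000205). In shPax6, Glud1-201 rose from 20.2 and 21.6 to 31.0 and 31.3 FPKM (0.58, SE 0.08, adjusted p = 0.00433) while Glud1-202 went from 2.03 and 10.2 to 10.3 and 3.48 (adjusted p = 0.828). The rise of Glud1-201 in shPax6 kept its call in all 15 alternatives.

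Over the 50 transcripts of the 9 genes in the transcript table, 28 passed the filter on low values and 5 were at 0 in every library. After NMDA in WT 2 rose and 15 fell, with 35.2% of all 49940 transcripts tested called. In shPax6 4 rose and 3 fell (background 8.34%), and in JNK3 KO 1, Glul-201, fell (background 1.31%). For Slc1a3, Slc17a6, Slc17a8 and Glul the main transcript held on average at least 91.5% of the FPKM of the gene, and its calls after NMDA were those of the gene except for Slc1a3-201 in JNK3 KO, which missed the threshold (adjusted p = 0.0754). The main transcripts Glul-201, Slc1a1-201 and Slc1a2-202 fell in WT but turned to a rise with the trend on transcript length removed. Under the same correction Slc1a3-201 (-0.22, adjusted p = 0.109) and Slc17a8-201 (-0.13, adjusted p = 0.799) lost their calls in WT. Over all transcripts, those that start in the first 10% of the exonic sequence of their gene had a median log2 fold change of -0.64 in WT and those that start beyond the first 50% one of 0.22, against 0.01 and 0.25 in shPax6 and 0.03 and -0.17 in JNK3 KO. Slc17a7-204 starts behind 19.3% and Slc1a7-202 behind 43.7% of the exonic bases of their genes. In that range (10% to 50%) the WT median was -0.82 for all transcripts and -1.50 for the 3762 retained-intron transcripts, the class of these 2. Retained-intron transcripts as a whole held 7.31% to 8.80% of FPKM in each library, with WT NMDA at 7.31% and 7.37%. The part of coverage along transcripts in these estimates was not tested.

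The differences between responses were tested as such. WT minus shPax6, 7 members were called, 2 higher and 5 lower, with 49.7% of all genes called. The largest was Slc1a3, whose response in WT was lower by 2.01 on the log2 scale (SE 0.08, adjusted p = 7.86e-07), followed by Slc1a1 with -1.65 (SE 0.14, adjusted p = 2.11e-05). WT minus JNK3 KO, 8 members were called, 2 higher and 6 lower, with 51.4% of all genes called, and Slc1a3 led again with -1.76 (SE 0.08, adjusted p = 5.62e-07). For shPax6 minus JNK3 KO, 2 members were called, both higher, with 17.7% of all genes called, namely Slc1a1 with 0.80 (SE 0.14, adjusted p = 0.00471) and Slc1a7 with 0.46 (SE 0.09, adjusted p = 0.00898). The first 2 differences share the WT libraries. For Slc17a6 no difference between responses passed with all 12 libraries (adjusted p = 0.807, 0.431 and 0.684). The interval for WT minus JNK3 KO ran from -3.38 to 1.28. These results depend on the 2 discordant shPax6 NMDA libraries. With 1 library left out, WT minus shPax6 ran from -1.84 to 1.16 and shPax6 minus JNK3 KO from -2.21 to 0.79.

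The response of Glul was weaker in WT than in shPax6 by 0.20 (adjusted p = 0.0169) and than in JNK3 KO by 0.31 (adjusted p = 0.00143), but both differences turned with TPM (-0.33 and -0.29) and with quantile scaling (-0.30 and -0.52). The median difference over all genes was -0.28 and -0.03 with FPKM. With TPM it was -0.80 and -0.62, below both Glul values, and with quantile scaling it was -0.01 and 0, above both. The difference of Slc1a7 between WT and shPax6, 0.37 with FPKM, was -0.15 with TPM and missed the threshold there (adjusted p = 0.165). For Slc1a2 the WT response was lower than that of shPax6 by 0.71 and than that of JNK3 KO by 0.43, and with the trend on length removed it was higher by 0.40 and 0.88. Between WT and JNK3 KO, Slc1a1 went from -0.85 to 0.00 with the trend on length removed (adjusted p = 0.991), Glud1 lost its call in 14 of 23 alternatives, and Slc17a7 lost it in 11 and turned in 1. The differences of Slc1a3 and Slc17a8 between WT and both other genotypes kept direction and call in all 23 alternatives of the gene values.

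**Figure D5:**
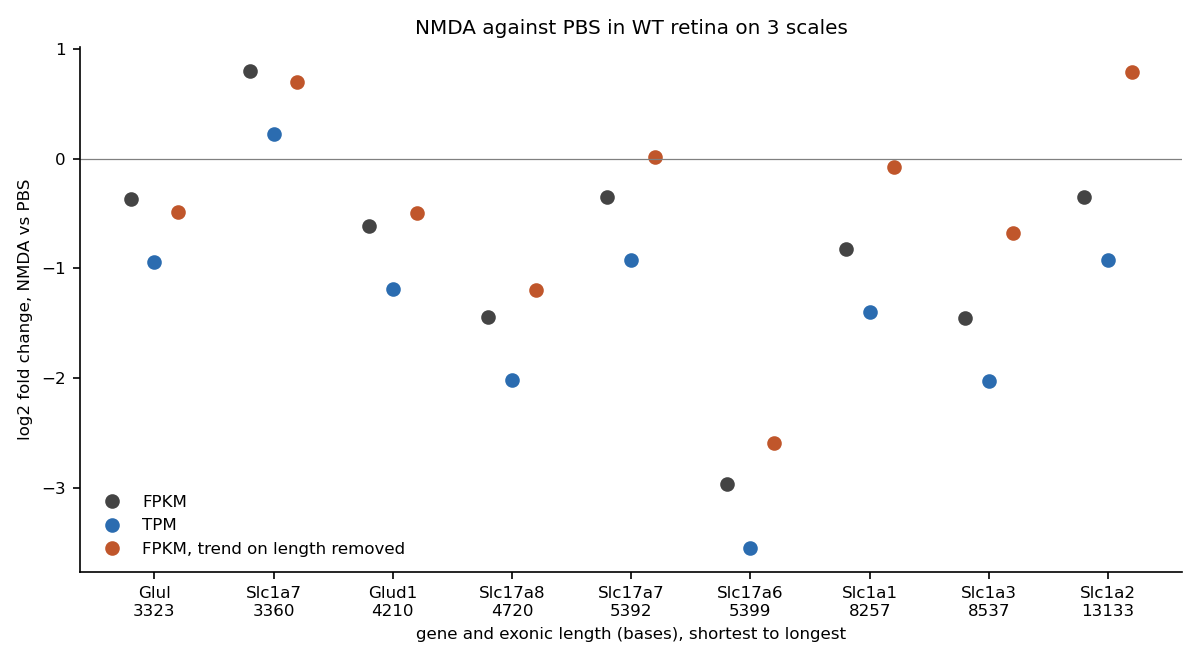
Log2 fold change after NMDA in WT retina (vertical axis) for the 9 genes, ordered by exonic length in bases, with FPKM, with TPM and with the trend on length removed from FPKM. TPM lowers all 9 estimates, and removal of the trend moves the 7 longest genes up, with Slc1a2 from -0.35 to 0.79.

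Of 40 other genes of glutamate and glutamine transport and metabolism, 39 were tested. After NMDA in WT 7 rose and 15 fell, where 59.8% of all genes were called, and their median log2 fold change was -0.30 against -0.09 for all genes. In shPax6 12 rose and 6 fell (median 0.20 against 0.10, with 30.2% of all genes called), and in JNK3 KO 2 rose and 5 fell (median 0.00 against -0.01, with 10.4% called). Under PBS 3 were higher and 7 lower in shPax6 than in WT, and 1 was higher and 1 lower in JNK3 KO, with 16.5% and 1.51% of all genes called. Among the rises in WT, Prodh, which degrades proline to an intermediate shared with glutamate, went from 7.14 and 7.58 to 19.5 and 16.6 FPKM (1.28, SE 0.17, adjusted p = 0.000163).

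The 2 largest falls in WT were Folh1, a peptidase that releases glutamate, from 3.07 and 3.93 to 0.44 and 0.70 FPKM (-2.44, SE 0.28), and Abat, which breaks down GABA, from 33.0 and 31.8 to 6.64 and 6.90 (-2.24, SE 0.11). In shPax6 the largest falls were those of the GABA-synthesising enzymes Gad2, from 8.54 and 9.76 to 2.52 and 2.20 FPKM (-1.91, SE 0.14), and Gad1, from 91.4 and 79.3 to 20.1 and 26.3 (-1.89, SE 0.12). The largest rises there were Slc7a11, the cystine-glutamate exchanger, from 0.74 and 0.54 to 2.44 and 3.32 FPKM (2.01, SE 0.30), and Pycr1, from 1.17 and 1.66 to 5.70 and 5.76 (1.96, SE 0.37). Among the rises in JNK3 KO was Slc7a8, a carrier of neutral amino acids (0.59, SE 0.14). The 2 largest falls there were Gls2, a glutaminase of mitochondria (-1.18, SE 0.29), and Slc1a6, the carrier EAAT4 (-1.13, SE 0.30).

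Over the 12 libraries the genes whose centred log2 values lay closest to a member, among 10519 tested genes with a mean above 5 FPKM, were Srek1 and Il6st for Slc1a3 (root mean square differences 0.11 and 0.13), Kdm5c and Bbs7 for Slc1a2 (0.10 and 0.11), Ulk1 and Olfm2 for Slc1a1 (0.14 and 0.14) and Yipf2 and Bsg for Slc1a7 (0.06 and 0.09). For the vesicular carriers and enzymes they were Klhl18 and Epb41 for Slc17a7 (0.06 and 0.08), Scd2 and Pcdhb9 for Slc17a8 (0.14 and 0.15), Vopp1 and Gulo for Glul (0.16 and 0.17) and Adar and Plec for Glud1 (0.07 and 0.13). These values are a description over libraries of 6 groups and carry no test. Of the 9 closest genes, 6 were also the closest with a pseudocount of 1.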

How the data were processed

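The authors aligned reads with STAR (2.7.1a) to GRCm38.p6, quantified genes and transcripts with RSEM (1.3.3), and deposited FPKM tables. Poly(A) RNA was reverse transcribed from oligo-dT and sequenced paired-end. Depth cannot be had from FPKM, and no interval for counting error is given. The members and lists were chosen with earlier results of these data known. Genes with a mean above 1 FPKM in at least 1 of 6 groups were tested on log2(FPKM + 0.1) in 1 model over 12 libraries with limma (3.58.1, R 4.3.3, eBayes with trend, 6 residual degrees of freedom, two-sided), with Benjamini-Hochberg adjustment over all genes or transcripts. The pseudocount understates changes of low genes. A response difference is the difference of 2 NMDA effects. Of 55487 genes 99.38% were in GENCODE M21, which gave exonic lengths, positions and sequences. Named beside the members were, of the pathway list, the 2 largest called rises and falls per NMDA response, the 2 genes closest to each member by the root mean square difference of centred log2 values (mean above 5 FPKM), and transcripts with at least 10% of the FPKM of their gene. Some pathway genes that this rule names are not reported here. Slc17a7-204 and other transcript estimates split reads shared between isoforms. Simulated data for the WT comparison held 16471 genes, of which only 111 changed by 2 on the log2 scale and 89 by 1. The test found 90 and 42 of them and called 11 unchanged genes. In the real data 59.8% of genes were called in that comparison, so these rates need not carry over. Alternatives were other pseudocounts, filters, scalings, a correction of each library for its lowess trend on length (span 0.3), other estimates of the spread, a replicate block and each library left out. Figures were drawn with matplotlib (3.10.9).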

Additional observations from a re-analysis of the deposited data

Results flagged for a closer look

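The 17 differences between NMDA responses listed here passed a test of the difference itself (limma, adjusted p under 0.05), and no cause was tested. Of all genes, 51.4% passed for WT minus JNK3 KO, 49.7% for WT minus shPax6 and 17.7% for shPax6 minus JNK3 KO. As log2 values of WT minus JNK3 KO they were -0.56 for Glud1, 0.31 for Glul, -0.22 for Slc17a7, -1.47 for Slc17a8, -0.85 for Slc1a1, -0.43 for Slc1a2, -1.76 for Slc1a3 and 0.83 for Slc1a7. Of these, Slc1a1 was 0.00 (adjusted p = 0.991) with the trend on length removed, Glud1 lost its call in 14 of 23 alternatives, and Slc17a7 lost it in 11 and turned in 1. Slc1a2 turned to 0.88 with that trend removed (adjusted p = 0.000224), and Glul turned in 2 alternatives and lost its call in 1. As WT minus shPax6 they were -1.11 for Glud1, 0.20 for Glul, -1.64 for Slc17a8, -1.65 for Slc1a1, -0.71 for Slc1a2, -2.01 for Slc1a3 and 0.37 for Slc1a7. Here Slc1a2 turned to 0.40 with the trend on length removed (adjusted p = 0.0163). Glul turned in 2 of 23 alternatives and lost its call in 1, and Slc1a7 turned in 1 and lost its call in 1. As shPax6 minus JNK3 KO they were 0.80 for Slc1a1 and 0.46 for Slc1a7. The first and second sets share the WT libraries, whose 2 NMDA libraries had the highest summed FPKM.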

How the results depend on the processing

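Over 72 member values and 23 alternatives each, 36 values kept their side of the threshold throughout. A change of direction was counted only where the main value or the alternative was called. Some uncalled values among the 36 therefore changed sign, such as Slc17a8 after NMDA in shPax6 (-0.04 to 0.33). With TPM the response difference WT minus shPax6 turned to -0.15 for Slc1a7 and -0.33 for Glul, and WT minus JNK3 KO to -0.29 for Glul. On that scale the medians of all genes for these differences were -0.80 and -0.62. With quantile normalization Glul turned to -0.30 (WT minus shPax6), -0.52 (WT minus JNK3 KO) and -0.22 (shPax6 minus JNK3 KO). With the length correction the WT response turned to 0.79 for Slc1a2 and 0.017 for Slc17a7, WT minus shPax6 to 0.40 and 0.39, and WT minus JNK3 KO to 0.88 and 0.17. Without shPax6 NMDA library 1 the WT minus shPax6 value of Slc17a6 was 1.16, and without library 2 it was -1.84. On transcripts, in alternatives chosen after seeing the data, the length correction turned the WT values of Slc1a2-202 to 1.42, Glud1-201 to 0.93, Slc1a1-201 to 0.57 and Glul-201 to 0.42. Members called between JNK3 KO and WT under PBS went to 0 by limma with quantile normalization (3 at an unadjusted p under 0.05, with 0.814% of all genes called), without the trend (2, 0.212%), with the spread of the compared groups alone (3, 0.0729%) and without JNK3 KO PBS library 1 (2, 0.146%). The length correction left 1 member in JNK3 KO (9.2% of all genes called) and 4 for WT minus JNK3 KO (41.2%), and the spread of the compared groups alone left 3 in shPax6, where calls over all genes went from 30.2% to 5.93%. Transcripts called in JNK3 KO were 2 with a pseudocount of 1. From gene values 9 members were called in WT, against 17 transcripts, and 2 in JNK3 KO. With 1 library left out, members called were 9 in WT, 6 to 8 in shPax6, 1 to 3 in JNK3 KO, 4 to 8 and 0 to 1 under PBS, and 7 to 8, 6 to 8 and 2 to 4 for the 3 response differences, and transcripts 16 to 18, 4 to 8 and 1 to 3. The share of all genes called then ran from 50% to 62.5% in WT, 24.2% to 32.2% in shPax6, 3.21% to 13.8% in JNK3 KO, 7.38% to 20.4% and 0.146% to 2.5% under PBS, and 40.9% to 51.9%, 44.2% to 54.9% and 10.1% to 21.4% for the response differences. The share of all transcripts called was 35.2%, 8.34% and 1.31% with all 12 libraries and is not given for the other settings. Between groups, the deviations of libraries with the same replicate number showed no common shift (15 correlations from -0.0973 to 0.0858, 0 above 0.1). This check sees only such a shift and cannot tell whether libraries were paired by mouse or batch. With the replicate block 9, 8 and 2 members were called after NMDA (59.2%, 29.1% and 9.25% of all genes), and only Glud1 in WT minus JNK3 KO lost its call (adjusted p = 0.0595). The causes of these changes were not tested.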
